A study of Physcomitrium patens with 24 samples.

Results

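Protonemata of the moss *Physcomitrium patens* held at 30 °C for 6 h were compared with protonemata kept at 24 °C and harvested at the same hour. The comparison took in every library labelled 30 °C 6 h and every library labelled 24 °C 6 h, which made 4 of the 24 libraries of the series (2 and 2), and all genes with enough reads. The series also holds 30 °C and 37 °C libraries of 1, 6, 12 and 24 h with 24 °C controls of each time. In both groups the plants were of the Gransden strain, were grown without other organisms on solid medium under 16 h of light and 8 h of dark, and gave RNA from 100 mg of tissue at 7 days. By the labels the groups differed only in temperature. Neither the labels nor the methods say at which hour of the light period the 6 h samples were taken, and the study calls its replicates biological without saying whether they were separate cultures started at different times.

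Protonemata are the branching filaments of green cells that grow from a moss spore. In plants, warmth that unfolds proteins releases heat shock factors, which bind heat shock elements in promoters and switch on the genes of heat shock proteins (HSPs). Small HSPs of the HSP20 family hold unfolding proteins in solution, HSP70 with its DNAJ partners and HSP90 with its own partners refold them, and Clp ATPases of the HSP100 family pull aggregates apart.

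The 4 libraries held between 7623160 and 8464090 counted reads. The log2 values of the replicates correlated across genes at r = 0.9822 for 24 °C and 0.9841 for 30 °C, where genes are not independent replicates. The Euclidean distance between replicates was 74.06 at 24 °C and 68.32 at 30 °C. The distances between a 24 °C and a 30 °C library ran from 79.24 to 101.1, so each of them was wider than either distance between replicates. The tissue label could not be checked well, because only 2 of the genes chosen to mark green cells had a name in the tables used here. A named photosystem gene outside that choice, Pp3c1_24790, is given below. RNA was taken from whole tissue, so a lower count cannot be told apart from fewer cells of a type.

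The 30 °C treatment of 6 h gave 141 up-regulated and 98 down-regulated genes. A gene was called when its adjusted p was under 0.05 and its log2 fold change (log2FC) was at least 1 in size. The calls came from edgeR's quasi-likelihood test over 21429 genes, with Benjamini-Hochberg adjustment. The up-regulated genes were 0.658% of the genes tested, and the down-regulated ones were 0.457%. Most of the changes were small. The median log2FC was 1.47 among the up-regulated genes, of which 22 reached 3. Among the down-regulated genes it was -1.35, and 4 reached -3. Over all genes tested the median was -0.01.

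The up-regulated genes started from low levels. Their median level at 24 °C was 6.97 CPM, the count of reads scaled to library size, against 19.1 CPM over all genes tested, and 22 of them stood below 1 CPM. The down-regulated genes started high, with a median of 38.3 CPM, and none of them stood below 1 CPM. A gene with few reads at 24 °C can rise but can hardly fall enough to be called. The calling rule itself therefore favours this difference in levels. Summed over the up-regulated genes, the level was 2945 and 2981 CPM in the 24 °C libraries and 8779 and 7640 CPM in the 30 °C libraries, a 2.77-fold rise. Summed over the down-regulated genes, it was 9800 and 10072 CPM at 24 °C and 3650 and 4134 CPM at 30 °C, a 2.55-fold fall. Both sums are of genes chosen for their change in these same libraries, so the folds follow from that choice. In every called gene the replicates of the groups did not overlap. Over all genes tested, the replicates did not overlap in 26.3% (higher at 30 °C) and 27% (lower), so that separation alone marked few genes out.

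Replicate 1 of the 30 °C group lay farther from the controls than replicate 2. It had the higher CPM in 105 of the 141 up-regulated genes and in 24 of the 98 down-regulated genes, against 50.5% of all genes tested. The number of calls also rested on the libraries used. With 24 °C replicate 1, 24 °C replicate 2 or 30 °C replicate 1 left out, 66, 49 and 50 genes were called up. With 24 °C replicate 2 or 30 °C replicate 1 left out, 41 and 33 were called down. Testing each gene against a log2FC of 1 in place of 0, with limma-voom treat, left 1 up-regulated and 1 down-regulated gene.

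**Figure D1:**
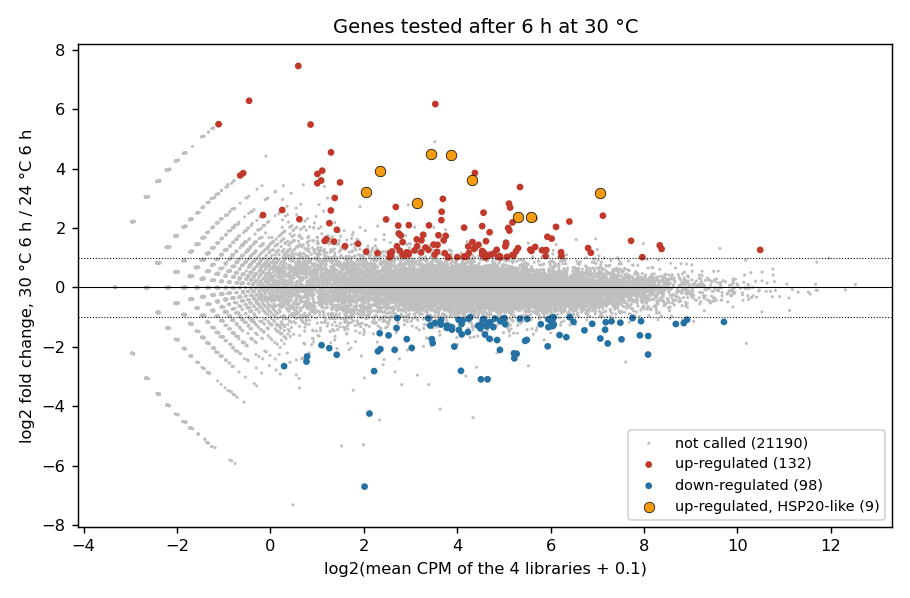
Log2 fold change of 30 °C 6 h over 24 °C 6 h (y axis) against the log2 of the mean CPM of the 4 libraries plus 0.1 (x axis), with 1 point for each of the 21429 genes tested. Red and blue points are the up- and down-regulated genes, orange points the 9 up-regulated HSP20-like genes, and dotted lines mark a log2FC of 1 and -1. The up-regulated genes reach further left, to lower levels, than the down-regulated ones, which the calling rule itself favours.

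Product names came from the study's own tables and covered 528 of the genes tested. Most of these names belong to genes that the study had called up at 37 °C, so they favour heat-induced genes. They named 36 of the 141 up-regulated genes and 1 of the 98 down-regulated genes. The counts for heat shock lists below are therefore not independent evidence of a direction.

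Of 19 HSP20-like genes, 9 were up-regulated (47.4%, against 0.658% of all genes tested) and none was down-regulated. Another 7 had no read in either 24 °C library, and 5 of these had none at 30 °C either. The median log2FC over the 12 members with a read at 24 °C was 3.0. The summed level of the family was 321 and 288 CPM at 24 °C and 900 and 663 CPM at 30 °C.

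Pp3c12_24560 was the most abundant of the 9, at 26.6 and 26.5 CPM in the 24 °C libraries and 287 and 189 CPM in the 30 °C libraries. The lower 30 °C library was still far above both controls. Its log2FC was 3.16 (standard error 0.32, adjusted p = 5.2e-05), and it was the up-regulated gene that limma-voom treat also called. Pp3c25_14630 had the largest log2FC of the family, 4.50 (standard error 0.56, adjusted p = 0.00031). It rose from 0.799 and 0.987 CPM to 22.7 and 18.5 CPM, close to absent in both controls and clearly present in both heated libraries. Pp3c16_7110 behaved alike, with 1.60 and 0.863 CPM at 24 °C, 29.1 and 26.0 CPM at 30 °C and a log2FC of 4.45 (standard error 0.49, adjusted p = 8.4e-05). Pp3c19_14230 stood at 3.31 and 2.59 CPM without heat and at 43.4 and 30.2 CPM with it, a log2FC of 3.63 (standard error 0.34, adjusted p = 5.0e-05). For these 4 genes the groups were far apart against the gap between replicates.

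The remaining 5 HSP20-like genes had log2FCs between 2.36 and 3.93. Pp3c11_14810 and Pp3c17_10780 were scarce at 24 °C, both below 1 CPM in each library, and reached 12.0 and 6.64 CPM and 9.54 and 5.07 CPM at 30 °C. Pp3c1_7030 rose from 2.63 and 1.60 CPM to 16.4 and 14.1 CPM. Pp3c19_22640 and Pp3c21_19080 were already expressed without heat, at 16.4 and 14.3 CPM and at 14.3 and 11.5 CPM. They reached 96.9 and 61.8 CPM and 81.3 and 50.9 CPM. The calls for Pp3c11_14810, Pp3c17_10780 and Pp3c21_19080 were lost when 30 °C replicate 1 was left out. Pp3c11_14810 and Pp3c17_10780 also lost theirs without 24 °C replicate 1 and with limma-voom eBayes, and Pp3c11_14810 and Pp3c21_19080 without 24 °C replicate 2.

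Not every member moved. Pp3c13_3880, at 253 and 227 CPM the most abundant of the family at 24 °C, stood at 299.9 and 259 CPM at 30 °C (log2FC 0.22, adjusted p = 0.58). Pp3c24_4390 stood at 0.913 and 1.48 CPM at 24 °C and at 1.61 and 1.58 CPM at 30 °C, and Pp3c11_14270 stayed below 1 CPM in all 4 libraries. Near-identical family members may share reads, so the split between them is uncertain.

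Of the partners and relatives of these chaperones, 5 of 49 passed, all upward, where 0.658% of all genes tested were called up. In the HSP70 family 1 of 9 genes was up-regulated. This was Pp3c12_9300, at 0.114 and 0.370 CPM in the controls and 4.58 and 3.15 CPM at 30 °C, a log2FC of 3.93 (standard error 0.70, adjusted p = 0.0056). It was scarce even in the heated libraries, and its call was lost without replicate 1 of either group and with limma-voom eBayes. The abundant HSP70 genes moved less. Pp3c26_10600 stood at 61.9 and 45.4 CPM and at 124 and 85.5 CPM, a log2FC of 0.96 that missed the threshold (adjusted p = 0.10).

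Among co-chaperones 2 of 10 genes were up-regulated. The first, Pp3c13_3400, encodes a homolog of BAG6, a protein with a domain that binds HSP70. It rose from 4.45 and 2.84 CPM to 25.4 and 17.7 CPM, a log2FC of 2.55 (standard error 0.47, adjusted p = 0.0071). The other, Pp3c15_21400, encodes an Aha1 protein, which stimulates the ATPase of HSP90. It stood at 29.8 and 25.4 CPM without heat and at 68.8 and 64.8 CPM with it, a log2FC of 1.27 (standard error 0.22, adjusted p = 0.0039). In both genes the lower heated library lay above the higher control. Both calls were lost without 24 °C replicate 2, and that of Pp3c13_3400 also without 30 °C replicate 1 and with limma-voom eBayes.

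The DNAJ family had 1 of 10 members up-regulated, Pp3c12_2810, at 22.3 and 24.0 CPM in the controls and 52.4 and 46.3 CPM at 30 °C (log2FC 1.09, standard error 0.16, adjusted p = 0.001). Its call was lost without 30 °C replicate 1, where the log2FC fell just under 1. Of the Clp ATPases 1 of 2 was up-regulated, Pp3c19_4790, with 36.2 and 30.2 CPM against 85 and 73.3 CPM (log2FC 1.25, standard error 0.32, adjusted p = 0.046). That call was close to the threshold and was lost when any of the 4 libraries was left out.

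None of 5 HSP90 genes, 9 chaperonins or 4 heat shock factors was called. Their medians were 0.54, 0.65 and 0.07 on the log2 scale. The HSP90 gene Pp3c14_3360 had 360 and 347 CPM at 24 °C and 641 and 579 CPM at 30 °C. Its adjusted p was 0.010, but its log2FC of 0.79 lay under 1. The chaperonin Pp3c26_2180 sat at the edge of the rule, with 114 and 115 CPM against 241 and 218 CPM and a log2FC that rounds to 1.00 (adjusted p = 0.013). The 4 heat shock factor genes with a name had summed levels of 87.5 and 86.1 CPM at 24 °C and 99.1 and 86.3 CPM at 30 °C, groups that overlap. The paper likens Pp3c21_18820 and Pp3c22_9250 among them to Hsf2B. From their rise after 1 h at 37 °C, it proposes that they may dampen the response. At 30 °C both were called up at 1 h (log2FC 1.27 and 1.28), and neither was at 6 h (-0.10 and 0.31).

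Taking all 68 HSP-related genes, 14 were up-regulated, none was down-regulated and 54 did not pass. A further 6 had an adjusted p under 0.05 with a log2FC under 1. The 68 genes' share of all reads was 0.346% and 0.312% in the controls and 0.612% and 0.499% after heat. Replicate 1 of the 30 °C group had the higher level in all 14 called genes and in 58 of the 68. Without that library 7 genes of the list were called, and without 24 °C replicate 2, 9 were.

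**Figure D2:**
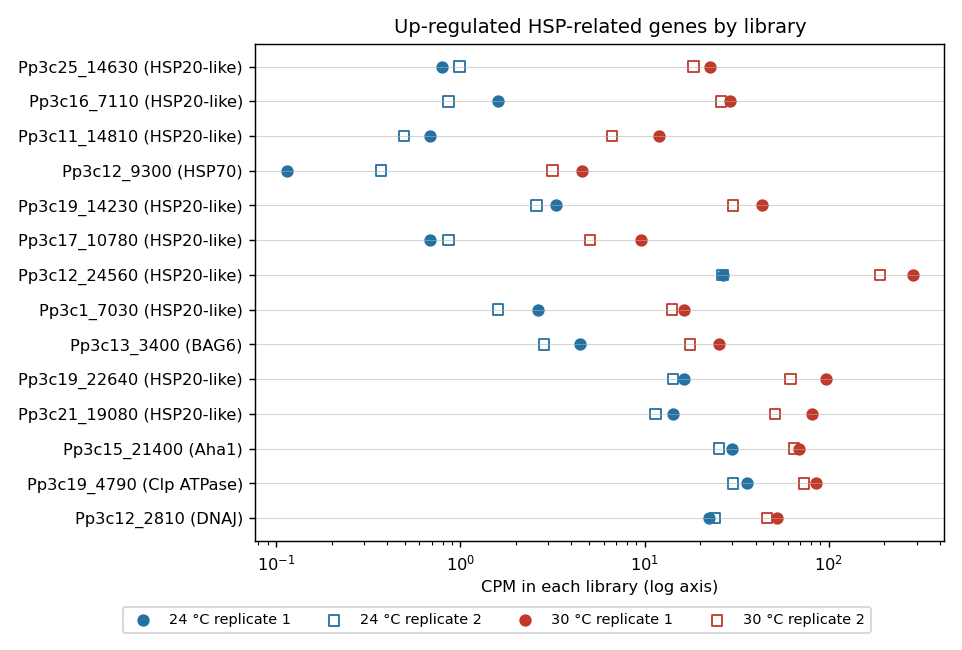
CPM on a log axis (x axis) of the 14 up-regulated HSP-related genes (y axis), with 1 symbol per library. Blue symbols are the 24 °C libraries and red symbols the 30 °C libraries, circles replicate 1 and squares replicate 2. In each gene both red symbols lie to the right of both blue symbols, and the red circle lies to the right of the red square.

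**Figure D3:**
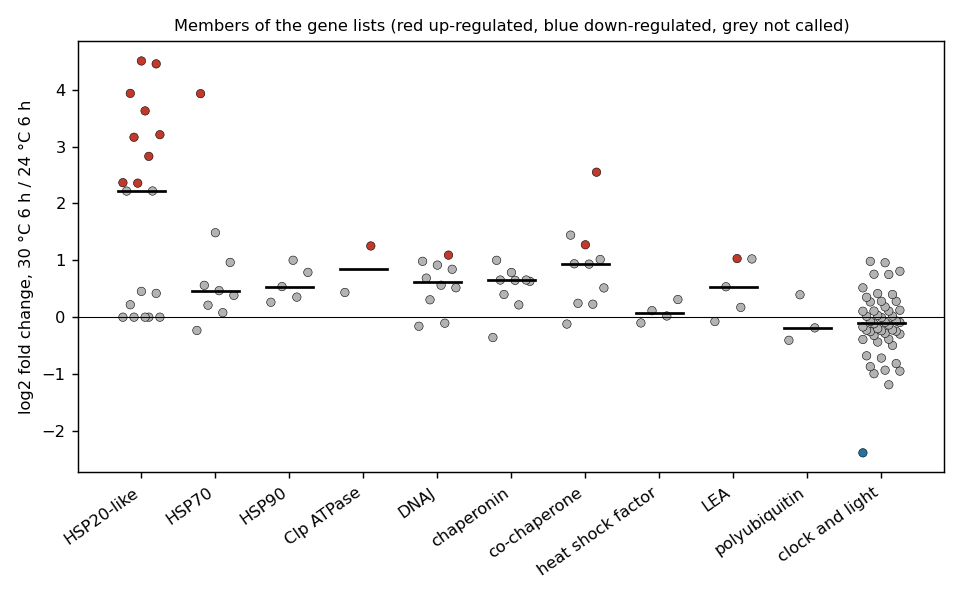
Log2 fold change of 30 °C 6 h over 24 °C 6 h (y axis) of the members of each gene list (x axis). Each point is a gene, and the black bar is the list's median. Of the HSP20-like genes 9 of 19 are up-regulated (red), and the 5 grey points at 0 are genes with no read in the 4 libraries. The HSP20-like bar at 2.22 and the other grey point at that value are genes with no read at 24 °C and a fitted change that rests on 1 read.

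Heat shock elements had been listed by the study for 49 genes, taken from a co-expression module (the yellow module) that was built in part on the 24 °C libraries of 6 h. Of these 49 genes 7 were up-regulated, 14.3%, against 7.46% of the whole module (42 of 563) and 0.658% of all genes tested. The study searched only the genes that followed the module's profile most closely, so the whole module is not a like background. Whether the share differs from that of the other searched genes was not tested. Their sites are shown because heat shock factors are known to bind elements of this kind. Capitals mark the 12 bases of the element, lower case the 10 bases on either side, 5′ to 3′ on the strand the table gives.
Pp3c19_22640, HSP20-like: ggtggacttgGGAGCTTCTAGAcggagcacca
Pp3c21_19080, HSP20-like: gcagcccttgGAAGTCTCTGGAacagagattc
Pp3c13_3400, BAG6, first site: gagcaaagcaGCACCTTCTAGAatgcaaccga
Pp3c13_3400, BAG6, other site: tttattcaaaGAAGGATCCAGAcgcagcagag
Pp3c19_4790, Clp ATPase: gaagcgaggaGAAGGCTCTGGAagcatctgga
Pp3c10_13060, transcriptional coactivator: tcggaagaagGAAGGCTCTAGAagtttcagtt
Pp3c7_700, RING/U-box protein: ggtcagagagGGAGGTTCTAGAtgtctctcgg
Pp3c17_18910, ferredoxin-like protein: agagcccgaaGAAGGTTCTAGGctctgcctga
The letters TCTAGA, which read the same on both strands, occur in the element of 4 of these 8 sites and in 26 of the 67 sites of the whole table (38.8%). A match describes the letters only.

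Besides the HSP-related genes, 22 named genes were up-regulated, and all of them are given here so that none is picked for its size. Pp3c3_12530, a gene for the small chain of Rubisco, the enzyme that fixes CO2, stood at 9.93 and 7.03 CPM in the controls and at 62.0 and 58.6 CPM after heat. Its log2FC was 2.82 (standard error 0.31, adjusted p = 8.4e-05), and the call held whichever library was left out. The other named small chain gene, Pp3c3_12330, had no read at 24 °C and below 1 CPM at 30 °C, so no fold is given. The named photosystem gene, Pp3c1_24790, of the PsbP family of the thylakoid lumen, stood at 51.4 and 53.3 CPM in the controls and at 52.4 and 51.5 CPM after heat (log2FC -0.01, adjusted p = 0.99).

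Pp3c10_13060, for a transcriptional coactivator, was abundant, at 110 and 103 CPM without heat and 345 and 286 CPM with it (log2FC 1.57, standard error 0.20, adjusted p = 0.00031), and its call held whichever library was left out. Pp3c18_16090, for the histone methyltransferase SUVR5, moved from 2.06 and 2.84 CPM to 4.71 and 6.53 CPM (log2FC 1.20, adjusted p = 0.042), a call that was lost when any of the 4 libraries was left out. Pp3c7_700, for a RING/U-box protein, the kind that passes ubiquitin to substrates, stood at 3.20 and 2.71 CPM against 7.19 and 6.08 CPM (log2FC 1.16, adjusted p = 0.042) and was equally dependent on each library.

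Pp3c10_3790, for ferritin, which stores iron, went from 12.3 and 14.8 CPM to 60.8 and 47.9 CPM (log2FC 2.00, standard error 0.32, adjusted p = 0.0026). Pp3c17_18910, for a ferredoxin-like iron-sulfur protein, stood at 1.60 and 0.493 CPM and at 3.72 and 4.51 CPM (log2FC 1.94, adjusted p = 0.0076). In both genes the lower heated library lay above the higher control library. The ferritin call was lost without 24 °C replicate 1, and the ferredoxin-like one without replicate 2 of either group and with the 4 libraries alone.

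Stress-named genes outside the chaperones were Pp3c2_35200, called low temperature and salt responsive, and the late embryogenesis abundant gene Pp3c20_10750, of a family that protects drying cells. Pp3c2_35200 rose from 27.2 and 32.6 CPM to 169 and 109 CPM (log2FC 2.22, standard error 0.45, adjusted p = 0.012). Pp3c20_10750 rose from 16.8 and 21.7 CPM to 42.0 and 36.6 CPM (log2FC 1.03, standard error 0.22, adjusted p = 0.019). It was the only called gene of 5 in its list, and its call was lost when any of the 4 libraries was left out. That of Pp3c2_35200 was lost without any of them but 30 °C replicate 2. None of 3 polyubiquitin genes passed, and their summed level was 1039 and 1116 CPM at 24 °C and 1203 and 1006 CPM at 30 °C, groups that overlap.

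Genes of cell structure and the cell surface included Pp3c2_24850, for TPX2, a microtubule protein of the mitotic spindle, with 6.28 and 6.66 CPM against 18.3 and 20.6 CPM (log2FC 1.59, adjusted p = 0.002). Pp3c1_39840, for a SCAR protein, which activates actin branching, stood at 18.7 and 14.8 CPM and at 43.4 and 37.5 CPM (log2FC 1.27, adjusted p = 0.0093). Pp3c2_16740, for a Core-2/I-branching sugar transferase, stood at 13.4 and 11.3 CPM and at 35.8 and 37.1 CPM (log2FC 1.56, adjusted p = 0.0022). The TPX2 call held whichever library was left out. The sugar transferase and SCAR calls were lost without 24 °C replicate 2, and the SCAR call also without 30 °C replicate 1.

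Some named genes were barely detected without heat. Pp3c11_15920, for a glycosyl hydrolase of family 31, was at 0.343 and 0 CPM in the controls and at 5.70 and 3.38 CPM after heat (adjusted p = 0.0041). Pp3c16_13440, for a basic endochitinase, which cuts chitin, was at 0.114 and 0 CPM and at 1.36 and 0.788 CPM (adjusted p = 0.026). Pp3c10_2370, for a leucine-rich repeat kinase, had no read at 24 °C and 9 and 3 reads at 30 °C (adjusted p = 0.019). Its mean at 30 °C was 2.04 times a floor of 3 reads per library set for the controls. In 30 °C replicate 2 it stood at 0.338 CPM, under that floor of 0.356 CPM. Floors of this kind cover only the counting error of the controls. All 3 calls were lost without 24 °C replicate 2 or 30 °C replicate 1. Those of Pp3c16_13440 and Pp3c10_2370 were also lost without 24 °C replicate 1 and with the 4 libraries alone, the former with DESeq2 and the latter with limma-voom eBayes too.

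The other named genes were the following. Pp3c1_25080, of a plant viral-response family, stood at 5.48 and 13.3 CPM and at 78.8 and 42.2 CPM, a log2FC of 2.69 (standard error 0.60, adjusted p = 0.022) with wide gaps between replicates, and its call was lost without any library but 30 °C replicate 2. Pp3c23_2900 (maternal effect embryo arrest 59), Pp3c13_10560 (SERF family) and Pp3c2_7120 (pyrimidine 2) had log2FCs of 1.91, 1.71 and 1.51. Their adjusted p-values were 6.4e-05, 7.7e-05 and 5.2e-05, and their calls held whichever library was left out. Pp3c13_22780 (BTB/POZ domain), Pp3c15_18090 (dCTP pyrophosphatase-like), Pp3c19_13340 (transmembrane protein 14C) and Pp3c22_820 (aldolase-type barrel) had log2FCs of 1.26, 1.18, 1.04 and 1.03, with adjusted p-values of 0.042, 0.012, 0.003 and 0.0039. Each of these 4 calls was lost without at least 1 library.

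Plant clocks are built of morning and evening genes that repress each other, and the evening complex of ELF3 and ELF4 takes part in the response to warmth in flowering plants. Of 50 clock and light signalling genes in the study's circadian list, 1 was down-regulated and none was up-regulated, where 0.457% and 0.658% of all genes tested were. A single call is too few to describe the list as changed. The median log2FC of the list was -0.10, against -0.01 over all genes tested. The gene called was the ELF3 homolog Pp3c11_14750, the only named gene among those that fell. It stood at 57.4 and 67.6 CPM in the controls and at 5.95 and 17.8 CPM after heat. Both heated libraries lay below both controls, but they were far apart from each other. Its log2FC was -2.38 (standard error 0.43, adjusted p = 0.0065). The call was lost without 24 °C replicate 2 or 30 °C replicate 1. The other ELF3 homolog of the list, Pp3c7_10610, was not called.

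Another 5 genes of the circadian list had an adjusted p under 0.05 with a log2FC under 1 in size, 4 higher and 1 lower. The CCR2 homolog Pp3c7_6560, for an RNA-binding protein with a daily rhythm in flowering plants, was highly expressed, at 2532 and 2809 CPM in the controls and 5159 and 5384 CPM after heat. Its log2FC was 0.98 (standard error 0.17, adjusted p = 0.0055), just under the rule. Its paralog Pp3c7_3360 stood at 928 and 1131 CPM and at 828 and 962 CPM, groups that overlap (log2FC -0.20, adjusted p = 0.72). The pseudo-response regulator Pp3c16_18610 rose from 390 and 382 CPM to 647 and 656 CPM (log2FC 0.76, adjusted p = 0.015). The DET1 homolog Pp3c19_5540 and the CKB3 homolog Pp3c5_14940 had log2FCs of 0.81 and 0.52 (adjusted p = 0.025 and 0.034). The ELF4 homolog Pp3c6_6280 went the other way, from 23.1 and 22.2 CPM to 11 and 14.6 CPM (log2FC -0.82, standard error 0.18, adjusted p = 0.024).

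The genes that fell could mostly not be described by function, since 97 of the 98 have no name in the tables used here. The clearest was Pp3c10_11330, chosen here after its values were seen because it was the 1 gene that limma-voom treat called down. It had 50.7 and 38.7 CPM in the controls and 4.71 and 5.74 CPM after heat, a log2FC of -3.09 (standard error 0.23, adjusted p = 2.5e-06), and its call held under each of 13 alternatives. The largest fitted falls were less secure. Pp3c6_28290 had 2 and 125 reads in the controls and 0 and 1 after heat, so its call (adjusted p = 0.044) rested on 24 °C replicate 2 (it was lost without either 30 °C library too). Pp3c15_14300 had 121 and 19 reads and then 3 and 4 (log2FC -4.24, standard error 1.00, adjusted p = 0.044), and its call was lost when any library but 24 °C replicate 2 was left out.

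The largest fitted rises were likewise in scarce transcripts without a name. Pp3c22_16740 had no read at 24 °C and 21 and 27 reads at 30 °C, a mean 7.92 times the same floor of 3 reads per library. Pp3c12_15789 had no read at 24 °C and 13 and 8 reads at 30 °C, a mean 3.53 times that floor. The adjusted p-values were 0.0037 and 0.014. Both calls were lost without 24 °C replicate 2, and that of Pp3c12_15789 also without replicate 1 of either group and with the 4 libraries alone. In all, 3 of the called genes had no read in either control.

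The libraries of 1, 12 and 24 h have controls of their own and share none with those of 6 h, so the other times show how the genes called at 6 h stood earlier and later. Of the 141 up-regulated genes, 60 (42.6%) were also up-regulated at 1 h, 77 (54.6%) at 12 h and 87 (61.7%) at 24 h, where the share of all genes tested was 2.46%, 1.61% and 9.3%. None was down-regulated at 1 h or 12 h, and 7 were at 24 h. The genes in common made up 11.4%, 22.4% and 4.37% of the up-regulated genes of those times. Of the 141, 45 were up-regulated at all 3 other times and 29 at none of them.

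Of the 98 down-regulated genes 14 (14.3%) were down-regulated at 1 h, 52 (53.1%) at 12 h and 68 (69.4%) at 24 h, where all genes tested gave 1.07%, 1.05% and 9.41%. The sign at 1 h was that at 6 h in 88.8% of them and in 85.8% of the up-regulated genes. Of all genes tested, 49.6% had a negative and 48.6% a positive log2FC at 1 h. The difference between the directions was not tested. The down-regulated genes in common made up 6.11%, 23.0% and 3.37% of those called down at 1, 12 and 24 h. The median log2FC of the 98 genes, in the order 1, 6, 12 and 24 h, was -0.55, -1.35, -1.17 and -1.57. That of the up-regulated genes was 1.08, 1.47, 1.21 and 1.39. The 6 h medians are of genes chosen at 6 h and cannot be set against the others.

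**Figure D4:**
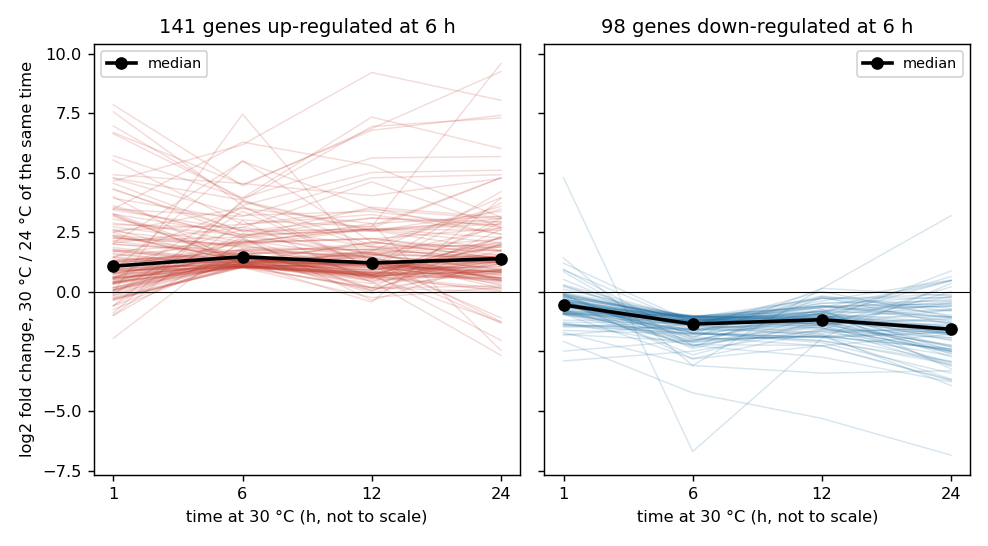
Log2 fold change of 30 °C over 24 °C at each time (y axis) for the genes called at 6 h, by time at 30 °C in hours (x axis, not to scale). Thin lines are genes, 141 up-regulated (left) and 98 down-regulated (right), and the black line is their median. The median of the up-regulated genes is 1.08 at 1 h, and that of the down-regulated genes is -0.55 at 1 h and -1.17 at 12 h.

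Whether a gene responded differently after 6 h than after 1 h was tested as the difference between the responses in the same edgeR model. Such a difference can come from the heated libraries, from the controls or from both. By the calling rule, 1798 genes were higher and 1163 lower at 6 h than at 1 h in the 24 °C controls. At 30 °C, 1749 were higher and 1282 lower. In 109 genes (0.509%) the log2FC was lower at 6 h than at 1 h, and in 33 genes (0.154%) it was higher. This split depended on the scaling. With library totals in place of TMM, which moved the median difference of all genes from -0.01 to 0.14, 54 were lower and 51 higher, and limma-voom treat called 0 and 0. The 109 genes had a median log2FC of 1.54 at 1 h and -0.04 at 6 h, and the 33 genes a median of -0.82 at 1 h and 0.59 at 6 h. Both sets were chosen by this difference in these same libraries, so the gap between the medians follows from the choice. Names were known for 52 of the 109 and for none of the 33. Of the 530 named genes, 470 took their name from a list of genes that the study had called higher after 1 h at 37 °C, and 88.4% of the named genes tested had a lower log2FC at 6 h than at 1 h, against 50.6% of all genes tested. These counts depended on single libraries. Leaving out any of the 8 libraries lowered the 33 to between 3 and 17. The 109 fell to between 18 and 45 without either library of 24 °C 1 h or 30 °C 1 h, without 24 °C 6 h replicate 2 or without 30 °C 6 h replicate 1.

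Of the 68 HSP-related genes, 65 had a lower log2FC at 6 h than at 1 h, and in 10 of them the difference passed the test (7 with library totals). Since most of these genes were named from that list, the count is not independent evidence of a direction. In each of the 14 HSP-related genes called at 6 h the log2FC was lower than at 1 h, and 2 of these differences passed. Pp3c19_14230, an HSP20-like gene, had a log2FC of 7.55 after the first hour and 3.63 at 6 h, followed by 5.01 (12 h) and 5.10 (24 h). The difference between 6 h and 1 h was -3.92 (adjusted p = 0.0016). In Pp3c1_7030, of the same family, the log2FC was 5.53 at 1 h and 2.83 at 6 h, a difference of -2.70 (adjusted p = 0.017).

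The other 8 HSP-related genes with a lower response were not called at 6 h. The HSP20-like gene Pp3c24_4390 had a log2FC of 5.69 at 1 h and 0.42 at 6 h (difference -5.27, adjusted p = 0.013). The hikeshi-like gene Pp3c10_12120, whose human counterpart carries HSP70 into the nucleus, had 4.10 at 1 h and 0.93 at 6 h (difference -3.17, adjusted p = 0.00060). The Clp ATPase Pp3c24_9060 had 2.35 and 0.43 (difference -1.92, adjusted p = 0.00056). For the DNAJ genes Pp3c17_2260 and Pp3c20_14730 the differences were -2.79 and -1.60 (adjusted p = 0.0099 and 0.040). For the chaperonin Pp3c26_2180, the HSP20-like gene Pp3c13_3880 and the HSP90 gene Pp3c14_3360 they were -1.38, -1.19 and -1.15 (adjusted p = 0.038, 0.038 and 0.024). The calls of Pp3c19_14230, Pp3c10_12120 and Pp3c24_9060 held whichever of the 8 libraries was left out, and those of the other 7 were each lost without at least 1 of them.

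Outside the chaperones, the genes for Bax inhibitor-1 proteins, membrane proteins that restrain cell death, had a smaller response at 6 h than at 1 h. Pp3c1_12850 had a log2FC of 1.75 at 1 h and 0.34 at 6 h (difference -1.41, adjusted p = 0.0058), and Pp3c3_15530 had 2.31 and 0.37 (difference -1.93, adjusted p = 0.0078). The sphingolipid desaturase gene Pp3c21_180 had 1.30 at 1 h and -1.10 at 6 h (difference -2.40, adjusted p = 0.038). Its mean level in the controls was 6.399 CPM at 1 h and 36.79 CPM at 6 h, a log2 difference of 2.52 (edgeR adjusted p = 8.0e-05). In the heated libraries the mean was 15.82 CPM at 1 h and 17.14 CPM at 6 h. The lower response of this gene therefore went with a higher control level, while its heated level changed little. The RING/U-box gene Pp3c7_700 and the aldolase-type gene Pp3c22_820 were called at 6 h with a smaller response than at 1 h, by -2.05 and -1.45 (adjusted p = 0.038 and 0.012). Of these 5 genes outside the chaperones, Pp3c1_12850 kept its call whichever library was left out and the others did not. Further named genes outside the chaperones also had a lower response by the rule and are not listed.

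**Figure D5:**
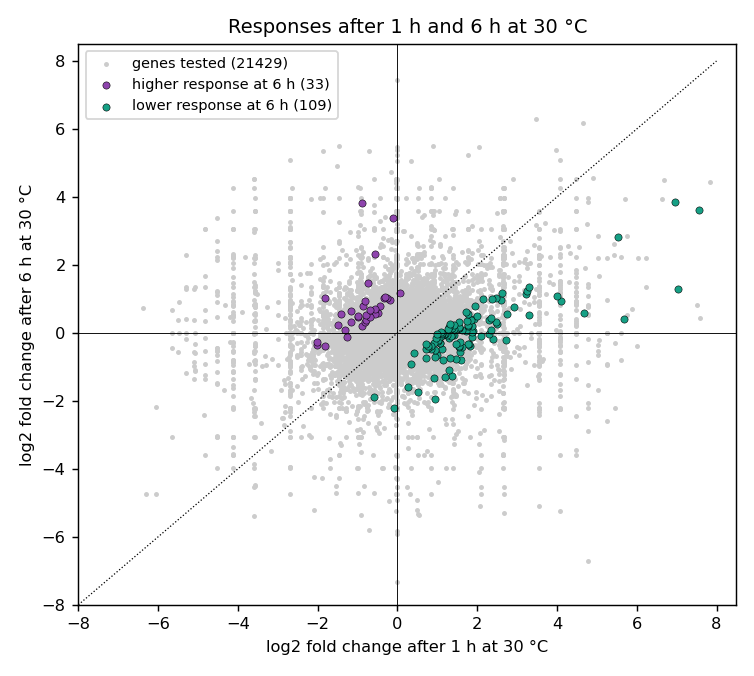
Log2 fold change after 6 h at 30 °C (y axis) against that after 1 h (x axis), each over the 24 °C libraries of its time. Grey points are all 21429 genes tested, green points the 109 genes with a lower and purple points the 33 genes with a higher response at 6 h, and the dotted line marks equal responses. Most green points lie near 0 on the y axis and between 1 and 3 on the x axis.

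Between 6 h and 12 h no response differed by the same rule (0 higher, 0 lower, smallest adjusted p = 0.108). An unadjusted p under 0.05 was found for 1081 of 21429 genes. That is about the share that such a cut gives when no gene differs. DESeq2 called 8 higher and 5 lower, and limma-voom with eBayes called 2 higher. The responses at these times are therefore not shown to be equal.

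The 37 °C libraries of 6 h were compared with the same 24 °C libraries, so their values are only set beside those at 30 °C. Pp3c12_24560 had a log2FC of 3.16 at 30 °C and 5.73 at 37 °C, Pp3c16_7110 had 4.45 and 8.34, and Pp3c12_9300 had 3.93 and 8.63. Pp3c3_12530, the Rubisco small chain gene, had 2.82 and 3.28, Pp3c10_3790 (ferritin) 2.00 and 3.93, and Pp3c11_14750 (ELF3 homolog) -2.38 and -1.13.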

How the data were processed

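Polyadenylated RNA of 24 libraries was sequenced as read pairs. The authors deposited raw read counts per gene for 32926 genes, made with bcl2fastq 1.8.4, BWA-MEM 0.7.17.1 and featureCounts at default settings. These do not use strand, although the libraries were strand-specific, so reads of overlapping or antisense genes cannot be told apart.

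The test was edgeR 4.0.16 (R 4.3.3). Genes above 0.5 CPM in at least 2 libraries were kept (21429) and scaled by TMM (factors of 1.001 to 1.059 in the 4 libraries). The quasi-likelihood model had 12 groups and used all 24 libraries. Standard errors (log2FC divided by the root of F) and p-values rest on a spread shared by the 12 groups and measure only the spread between these samples. Calls needed an adjusted p (Benjamini-Hochberg) under 0.05 and a log2FC of at least 1 in size. The script was tested on simulated data. No stated p covers a gene list. Replicates of a group differed by more than sampling noise (chi-square per gene of 7.127 at 24 °C and 7.073 at 30 °C).

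Alternatives were limma 3.58.1 (voom with treat or eBayes), DESeq2 1.42.0, RLE scaling, library totals, other filters, a block for the replicate number, the 4 libraries alone and each library left out. The paper's own methods name limma, with its eBayes and treat functions and the same thresholds. For this same comparison the paper's text counts 1 up-regulated gene, against the 141 called here with edgeR. Of the limma functions, treat left 1 up-regulated and 1 down-regulated gene here, so the counts of 141 and 98 depend on the method.

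Genes named are the 12 largest changes per direction among named genes above a mean log2 CPM of 1, the 2 largest of any gene, up to 6 called and 2 abundant members of each list, called circadian genes and genes of the paper's text. Every other called gene with a name was added. Names come from the study's tables, lists are patterns on those names, and no identifier matched the reference table of RefSeq genes. Members and lists were chosen with earlier results of these data known.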

Additional observations from a re-analysis of the deposited data

Results flagged for a closer look

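Responses at 30 °C that differed between 6 h and 1 h by the test of the difference itself are counted here, and a part of them is listed. The response was lower at 6 h in 109 genes and higher in 33, but in 54 and 51 with library totals and in 0 and 0 with limma-voom treat. The genes listed next are a part of the 52 named ones among the 109, so all were lower at 6 h. Most gene names come from a list of genes that the study had called higher after 1 h at 37 °C, which favours a high response at 1 h. On the log2 scale the response at 6 h minus that at 1 h was -5.27 in Pp3c24_4390, -3.92 in Pp3c19_14230, -3.17 in Pp3c10_12120, -2.79 in Pp3c17_2260, -2.70 in Pp3c1_7030 and -2.40 in Pp3c21_180. It was -2.05 in Pp3c7_700, -1.93 in Pp3c3_15530, -1.92 in Pp3c24_9060, -1.60 in Pp3c20_14730 and -1.45 in Pp3c22_820. It was -1.41 in Pp3c1_12850, -1.38 in Pp3c26_2180, -1.19 in Pp3c13_3880 and -1.15 in Pp3c14_3360. Groups of 2 libraries were too small to look for a library that stands apart from the others of its group.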

How the results depend on the processing

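The called genes came out as 141 up and 98 down. Scaling by RLE or by library totals, either other filter, the replicate block, the 4 libraries alone, limma-voom eBayes and DESeq2 left both counts within 1.5 times. With only the 4 libraries, 97 of the 128 up-regulated and 65 of the 95 down-regulated genes were shared with the model of all libraries. Limma-voom treat called 1 up and 1 down, Pp3c12_24560 and Pp3c10_11330. It called 1 HSP-related gene, an HSP20-like one, and 0 differences from 1 h in either direction. Limma-voom eBayes called 9 HSP-related genes. With 1 library left out, where the lone sample is assumed to vary like the other groups, the counts ran from 49 to 107 (up), 33 to 85 (down), 7 to 14 (HSP-related) and 6 to 9 (HSP20-like). For the responses higher and lower at 6 h than at 1 h they ran from 3 to 17 and from 18 to 94. In all, 33 of the up-regulated and 20 of the down-regulated genes were called whichever of the 4 libraries was left out.

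The 33 higher and 109 lower responses became 51 and 54 with library totals, 14 and 72 with limma-voom eBayes and 79 and 226 with DESeq2. The lower responses were 173 with no filter. Against 12 h, no filter gave 1 higher, limma-voom eBayes 2 higher, DESeq2 8 higher and 5 lower, and 0 remained with each library left out.

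Same-numbered libraries of the groups at 6 h deviated together at r = 0.0702 across genes, and over all pairs of groups r ran from -0.186 to 0.331. Such correlations cannot show whether the numbers pair the samples, and the labels do not say. With the replicate block, 156 genes were up, 118 down, and 41 and 187 responses were higher and lower than at 1 h. The causes of these differences were not tested. Over all alternatives, values of single named genes lost a call 219 times and gained one 18 times, uncalled values changed sign or became 0 in 19 cases, and no called value reversed. At this depth a floor of 3 reads per library is 0.356 CPM, which limits genes near 0.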
